A study of Homo sapiens with 33 samples.

Results

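Messenger RNA of 8 genes that serve as antibody targets or serum markers of ovarian carcinoma was followed across 11 cell lines of high-grade serous ovarian carcinoma, the commonest epithelial ovarian cancer. The genes were FOLR1, MSLN, MUC16, MUC1, WFDC2, SLC34A2, CDH6 and VTCN1. They were taken by symbol, and all 8 were found among the 29744 genes of the deposited tables. Each line was sequenced in 3 libraries, 33 in all, with 18058985 to 43394009 counts per library.

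The lines formed 4 families. OVCAR3 and OVCAR4 were the platinum-sensitive parents of OVCAR3 ResA, OVCAR3 ResB, OVCAR4 ResA and OVCAR4 ResB, which the study derived by repeated pulses of cisplatin, A and B independently of each other. PEA1 and PEO1 were the platinum-sensitive lines of 2 patients whose later, platinum-resistant disease gave PEA2 and, in the other patient, PEO4 and PEO6. No label names a treatment, and by the study's text the cisplatin-selected lines were not kept in the drug. The labels name the line and the replicate, and the roles of sensitive and resistant came from the study's text. Each resistant line is 1 derivation, so its 3 libraries measure the spread between libraries of that line and not between independent resistant lines. The labels do not say whether the libraries of a line came from separate cultures.

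The 8 proteins are markers of tumors of the Müllerian tract, though not confined to it, and are held on the cell surface, shed from it or secreted. FOLR1, folate receptor alpha, and MSLN, mesothelin, are held in the membrane by a glycolipid anchor. MUC16 and MUC1 are large membrane mucins whose outer parts are shed, and the shed part of MUC16 is the serum marker CA125, which mesothelin binds. WFDC2 encodes the secreted protein HE4, measured in serum beside CA125. SLC34A2 encodes the sodium-dependent phosphate transporter NaPi2b, CDH6 the calcium-dependent adhesion protein cadherin-6, and VTCN1 an inhibitory ligand of the B7 family. Antibody-drug conjugates have been directed at several of them.

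By RefSeq on GRCh38.p14, WFDC2 lies on chromosome 20 at 45469753 to 45481532, MUC16 on chromosome 19 at 8848844 to 9065751 and MUC1 on chromosome 1 at 155185824 to 155192915. FOLR1 lies on chromosome 11 at 72189709 to 72196323 and MSLN on chromosome 16 at 760734 to 768865. SLC34A2 lies on chromosome 4 at 25655851 to 25678748, CDH6 on chromosome 5 at 31193686 to 31329146 and VTCN1 on chromosome 1 at 117143587 to 117210927. Promoters of 5 of the genes were matched in the RefSeq table. Those of the secreted and shed markers and of SLC34A2 are shown, because these genes moved together or apart between lines below. Each is the 250 bases before the annotated start, 5′ to 3′ on the gene's own strand. Capitals mark CACCTG or its reverse complement CAGGTG, an E-box of the kind that zinc-finger repressors of epithelial genes such as ZEB1 and SNAI1 bind.
WFDC2, chr20:45469503-45469752, plus strand: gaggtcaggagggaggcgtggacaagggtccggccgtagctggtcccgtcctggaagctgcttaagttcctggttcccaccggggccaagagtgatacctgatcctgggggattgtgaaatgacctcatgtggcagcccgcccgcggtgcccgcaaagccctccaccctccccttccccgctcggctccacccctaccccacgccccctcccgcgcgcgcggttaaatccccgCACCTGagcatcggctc
MUC16, chr19:9065752-9066001, minus strand: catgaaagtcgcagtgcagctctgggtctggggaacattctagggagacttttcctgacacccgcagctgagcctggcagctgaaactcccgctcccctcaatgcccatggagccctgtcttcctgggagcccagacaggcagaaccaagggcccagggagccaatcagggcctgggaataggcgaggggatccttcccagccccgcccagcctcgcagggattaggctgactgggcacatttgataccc
MUC1, chr1:155192916-155193165, minus strand: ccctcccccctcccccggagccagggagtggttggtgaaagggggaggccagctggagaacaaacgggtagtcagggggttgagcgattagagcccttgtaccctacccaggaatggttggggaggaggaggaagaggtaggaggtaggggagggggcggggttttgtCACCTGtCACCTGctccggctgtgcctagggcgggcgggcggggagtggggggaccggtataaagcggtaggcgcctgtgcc
SLC34A2, chr4:25655601-25655850, plus strand: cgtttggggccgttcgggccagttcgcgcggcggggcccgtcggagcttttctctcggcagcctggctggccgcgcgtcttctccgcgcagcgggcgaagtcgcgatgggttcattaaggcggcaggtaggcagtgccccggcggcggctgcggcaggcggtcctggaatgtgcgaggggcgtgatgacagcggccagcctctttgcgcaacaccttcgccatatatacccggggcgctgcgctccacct
The E-box stood 17 bases before the start of WFDC2, and the MUC1 window held it 2 times, 82 and 75 bases before the start. None was in the MUC16, SLC34A2 or VTCN1 windows at these starts, while a second annotated start of MUC16 had 1 at 159 bases. Of 35116 promoter windows of this length, 17.5% held it. CG dinucleotides numbered 33 in the SLC34A2 window, 19 in WFDC2, 11 in MUC1 and 6 in both MUC16 and VTCN1, against a median of 11 and quartiles of 3 and 23 over all windows. The window at a second annotated start of SLC34A2 had 4. These letters are a description of the windows and say nothing of which factor was bound.

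Levels are given first, in TPM, the relative abundance of a gene's transcripts, which divides by length and so allows genes to be compared. In all 33 libraries the most similar library was another of the same line. Of 12 genes that mark Müllerian and other epithelial cells, 8 to 12 reached 1 TPM in each line, and their summed level ran from 419 to 8300 TPM. PEA1 held that lower end at 419 to 466 TPM, while no library of another line was below 2530. Summed leukocyte markers (6 genes) stayed between 2.51 and 57.7 TPM and endothelial markers (5 genes) between 0.0217 and 14.7 TPM. Summed fibroblast markers (7 genes) were 69.6 to 116 TPM in PEA1 and at most 30.5 TPM elsewhere, and summed mesothelial markers (6 genes) ran from 1.46 to 87.6 TPM. The share of counts in the mitochondrial ribosomal RNA genes RNR1 and RNR2 ran from 1.12% to 14.8% and set some OVCAR4 libraries apart, as described with that family.

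**Figure D1:**
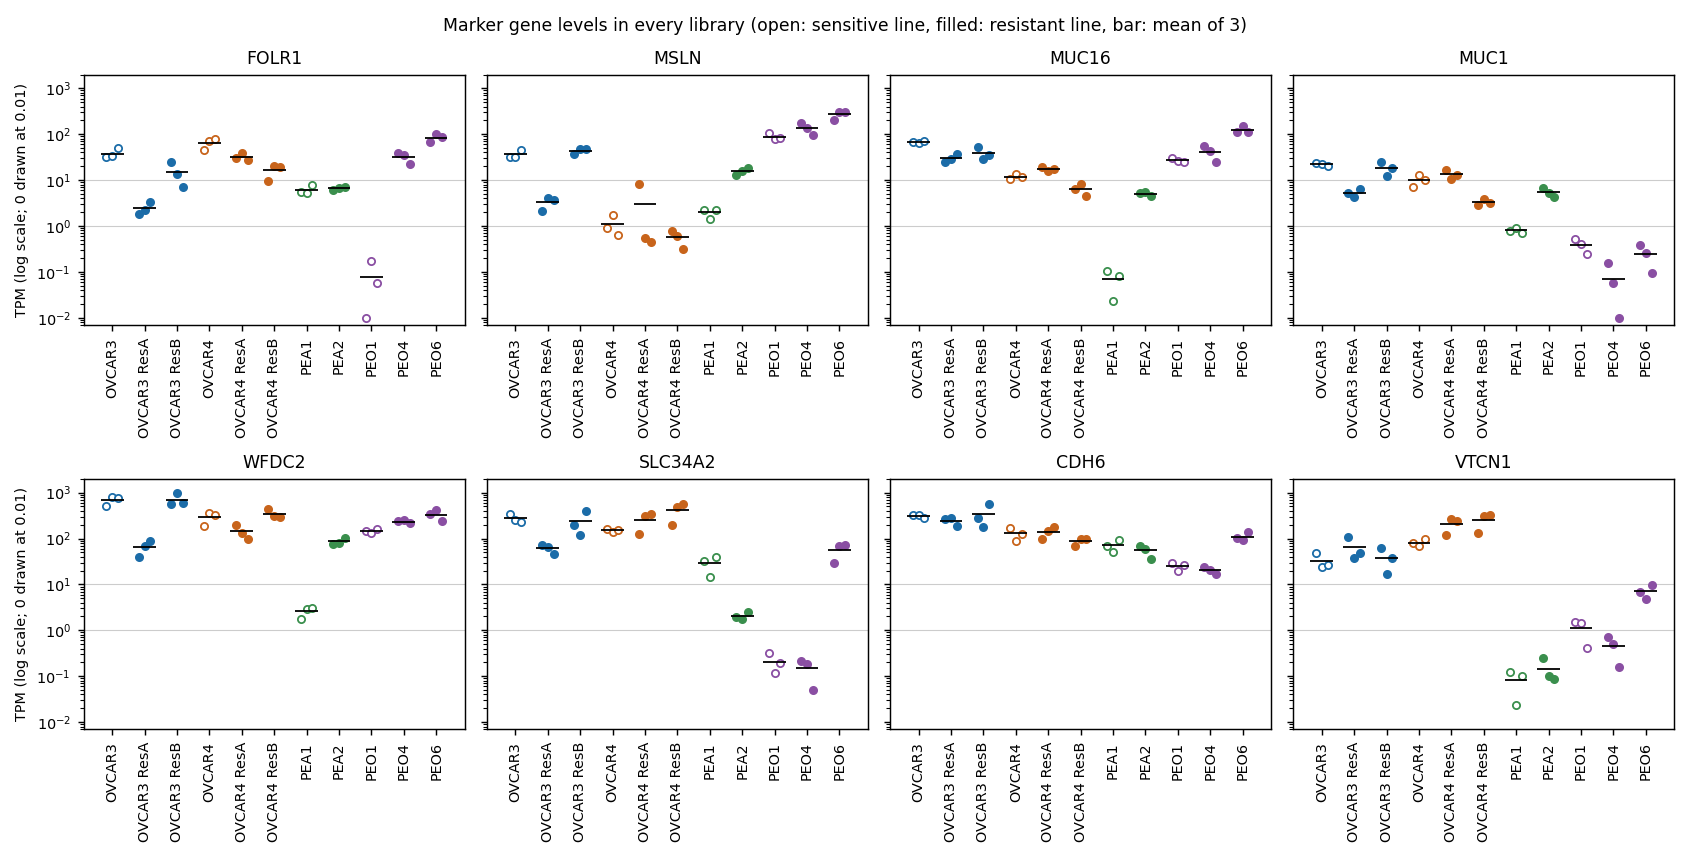
TPM on a log scale (a value of 0 is drawn at 0.01) of the 8 genes in every library of the 11 lines, with open points for sensitive and filled points for resistant lines, colours for families and a bar at the mean of 3 libraries. CDH6 stays above 10 TPM in all lines, while FOLR1 in PEO1, MUC16 in PEA1 and VTCN1 in PEA1 and PEA2 fall near or below 0.1 TPM.

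The genes differed in how evenly they were expressed. CDH6 was the most even, with a mean of at least 10 TPM in all 11 lines, from 20.2 TPM ± 3.58 (SD, n = 3) in PEO4 to 341 TPM ± 205 in OVCAR3 ResB, a ratio of 16.9. WFDC2 reached 10 TPM in 10 lines, and it was the highest of the 8 in OVCAR3, OVCAR3 ResB, OVCAR4, PEA2, PEO1, PEO4 and PEO6. In OVCAR3 ResB its mean of 707 TPM stood above 99.4% of all genes. The ratio of the highest to the lowest line was 2750 for SLC34A2 and 1810 for MUC16. It was 3160 for VTCN1, a value that rests on 1 to 6 counts in its lowest line, PEA1. For FOLR1 and MUC1 the lowest line had at most 3 counts in every library, so no ratio is given and their ranges cannot be ranked with the others. MUC1 was at 10 TPM or more in 4 lines and under 1 TPM in PEA1 and in the 3 PEO lines. In the order of lines by mean, 4 of 10 neighbouring lines overlapped in their 3 libraries for MUC16 and 8 of 10 for CDH6, with the other genes at 6 or 7, so most neighbours in these orders were not separated beyond their libraries' spread.

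The lines also differed in how many of the markers they carried. OVCAR3 and OVCAR3 ResB had all 8 at 10 TPM or more, OVCAR4 and OVCAR4 ResA had 7, PEO6 had 6, and OVCAR3 ResA, OVCAR4 ResB and PEO4 had 5. PEO1 had 4, PEA2 had 3 and PEA1 only 2, CDH6 and SLC34A2. VTCN1 split the families: the lowest library of the 6 OVCAR lines held 16.9 TPM and the highest of the 5 PEA and PEO lines 9.57 TPM. In bulk RNA of a line, a lower level in every cell and fewer cells with the transcript cannot be told apart.

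Each resistant line was then set against its sensitive relative, the question being which markers change with acquired platinum resistance. A gene was called where the Benjamini-Hochberg adjusted p of DESeq2 over all genes was under 0.05. Of 56 combinations of gene and pair, 34 were called, 17 higher and 17 lower in the resistant line, and each of the 8 genes was called in both directions somewhere. Over all genes the share called ran from 7.67% in OVCAR3 ResB to 47.0% in PEA2. In 7 of the 34 the TPM values of the lines overlapped, and the share of overlapping calls over all genes was not computed. ResA and ResB share a parent, as PEO4 and PEO6 do, so the 7 pairs are not independent of each other.

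**Figure D2:**
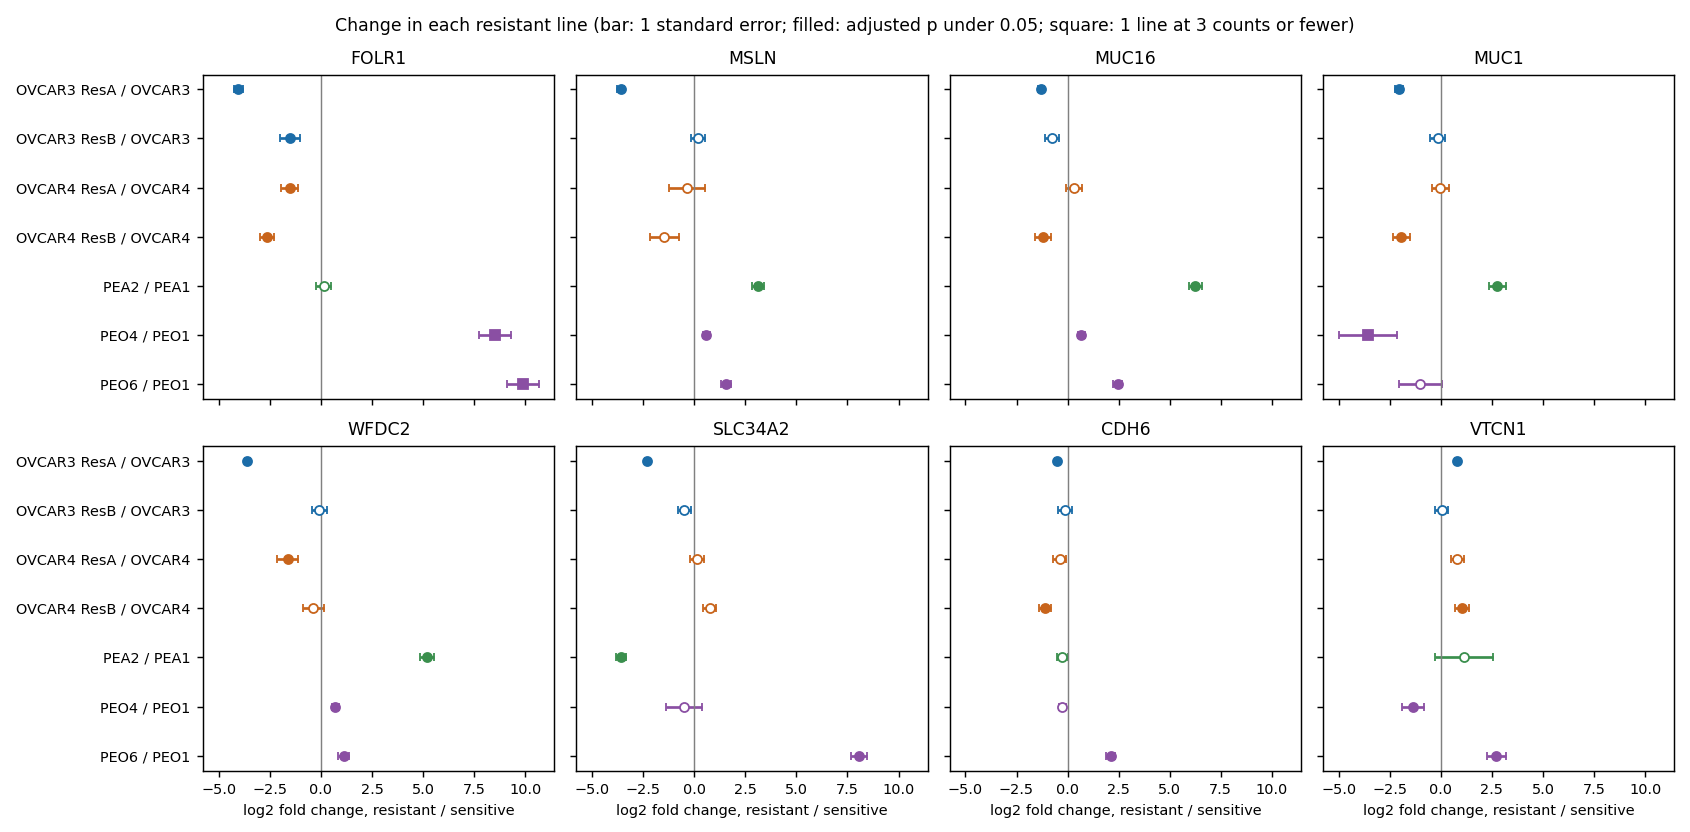
Log2 fold change of each gene in the 7 resistant lines against the sensitive line of the family, with bars of 1 standard error, filled points at adjusted p under 0.05 and squares where 1 line had at most 3 counts in every library. The OVCAR3 ResA points lie at or left of -0.50 except for VTCN1 at 0.81, and the PEO6 points lie right of 0 except for MUC1 at -1.0.

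In OVCAR3 ResA all 8 genes were called, 7 lower and VTCN1 higher. Of all tested genes 44.9% were called there, 22.0% higher and 22.9% lower. The median log2 change of the 8 was -2.19, against -0.02 over all genes. In OVCAR3 ResB, derived from the same parent, FOLR1 alone was called, lower, where 7.67% of all genes were called, 4.10% higher and 3.57% lower. In OVCAR4 ResA 2 genes were called, both lower, where 11.9% of all genes were called, 6.68% higher and 5.22% lower. In OVCAR4 ResB 5 were called, 4 of them lower, where 17.9% of all genes were called, 9.09% higher and 8.77% lower. FOLR1 was called lower in each of the 4 cisplatin-selected lines, although 3 of these calls were lost under some alternatives.

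The patient pairs had more calls to the higher side. In PEA2, 4 of the 8 were higher and 1 lower, where 47.0% of all genes were called, 23.3% higher and 23.8% lower, so that the number of calls was close to this background. In PEO4, 4 were higher and 2 lower, where 33.3% of all genes were called, 16.6% higher and 16.7% lower. In PEO6, 7 were higher and none lower, where 41.4% of all genes were called, 21.2% higher and 20.3% lower. The median log2 change was 1.95 in PEA2, 0.16 in PEO4 and 2.28 in PEO6. Placing the genes with 3 counts or fewer in 1 line at their bounds left these medians as they were.

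**Figure D3:**
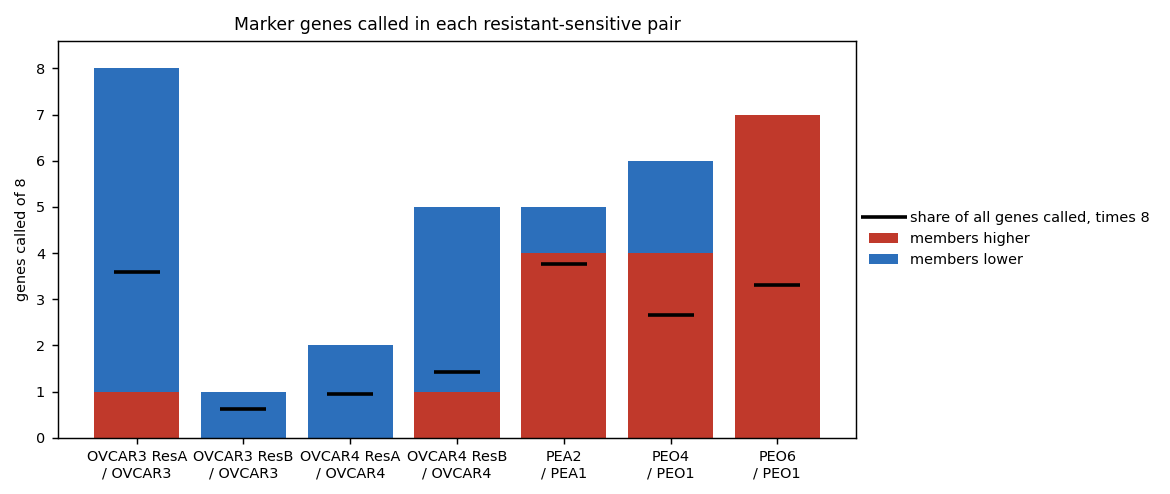
Number of the 8 genes called higher (red) or lower (blue) in each resistant line at adjusted p under 0.05, with a black mark at 8 times the share of all tested genes called in that pair. OVCAR3 ResA has 7 lower, PEO6 has 7 higher, and PEA2, with 5 called, sits close to its mark.

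WFDC2 had its largest changes in OVCAR3 ResA and in PEA2, in opposite directions. In OVCAR3 it was at 505, 817 and 783 TPM and in OVCAR3 ResA at 38.9, 69.4 and 87.9 TPM, without overlap. It fell 12.2-fold there (log2 change -3.61 ± 0.13 SE, adjusted p = 5.41e-168). In OVCAR3 ResB, at 552, 966 and 603 TPM, it lay within the range of the parent or above it, with a log2 change of -0.08 ± 0.37 (adjusted p = 0.965). In PEA1 it was nearly silent, at 1.72, 2.93 and 3.11 TPM, and in PEA2 it was at 77.1, 79.7 and 103 TPM. That rise was 36.6-fold (log2 change 5.19 ± 0.35, adjusted p = 4.16e-47). The sensitive line PEO1 held 149, 134 and 164 TPM, PEO4 240, 247 and 215 TPM and PEO6 334, 421 and 237 TPM, with no overlap of either resistant line with PEO1. WFDC2 rose 1.61-fold in PEO4 (adjusted p = 3.95e-04) and 2.16-fold in PEO6 (adjusted p = 1.28e-04). In OVCAR4 ResA it fell by 1.63 ± 0.50 on the log2 scale (adjusted p = 0.0148), but the libraries overlapped, at 98.1 to 195 TPM against 184 to 368 TPM.

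MUC16, the source of CA125, was called in the same direction as WFDC2 in 4 pairs, OVCAR3 ResA, PEA2, PEO4 and PEO6. OVCAR3 held 69.0, 64.6 and 69.5 TPM and OVCAR3 ResA 24.4, 28.4 and 37.7 TPM, a 2.45-fold fall (log2 change -1.29 ± 0.14, adjusted p = 3.13e-20). PEA1 held 0.105, 0.0230 and 0.0803 TPM, which rested on 20 to 57 counts, and PEA2 held 5.12, 5.62 and 4.44 TPM on 2431 to 3911 counts. This 76.2-fold rise was the largest of any marker in that pair (log2 change 6.25 ± 0.33, adjusted p = 2.42e-79). In the PEO lines MUC16 climbed from 30.8, 25.5 and 24.8 TPM in PEO1 to 112, 154 and 112 TPM in PEO6, a 5.48-fold rise (adjusted p = 3.16e-27). PEO4 lay between, at 54.3, 43.2 and 25.03 TPM, and its rise of 0.68 ± 0.17 on the log2 scale was called (adjusted p = 3.98e-04) although its lowest library lay among those of PEO1. OVCAR4 ResB held 6.29, 8.20 and 4.54 TPM against 10.4, 13.3 and 11.9 TPM in OVCAR4, a fall of 1.22 ± 0.39 (adjusted p = 0.0162) that was not called without replicate 2 (adjusted p = 0.326) or replicate 3 (adjusted p = 0.595). OVCAR4 ResA, at 18.9, 15.5 and 17.3 TPM, stood above its parent in TPM, while the test on counts gave 0.31 ± 0.38 (adjusted p = 0.675).

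MUC1, the smaller mucin, was called lower in 3 lines and higher in 1. It fell 4.2-fold in OVCAR3 ResA, from 23.6, 22.3 and 20.5 TPM to 5.14, 4.34 and 6.404 TPM (log2 change -2.07 ± 0.20, adjusted p = 2.01e-23). It fell 3.84-fold in OVCAR4 ResB, from 7.23, 12.9 and 9.93 TPM to 2.86, 3.81 and 3.16 TPM (adjusted p = 7.82e-05). The groups did not overlap in either line, but the OVCAR4 ResB call was lost under 6 of 12 alternatives, among them without replicate 2 (adjusted p = 0.110) or replicate 3 (adjusted p = 0.143). In PEA2 it rose 6.82-fold, from 0.784, 0.916 and 0.697 TPM to 6.70, 5.37 and 4.19 TPM (log2 change 2.77 ± 0.43, adjusted p = 9.43e-10). In the PEO lines MUC1 was barely detected: PEO1 had 12, 15 and 7 counts, PEO4 had 2, 1 and 0, and PEO6 had 9, 8 and 3. The fall in PEO4 was called (adjusted p = 0.0382) and was at least 3.37-fold, taking 3 counts per library as the floor. The call was lost without replicate 1 (adjusted p = 0.237) or replicate 3 (adjusted p = 0.132), and without replicate 2 no adjusted p was defined. At such depth the PEO6 change of -1.0 ± 1.07 could not be told from 0.

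FOLR1, which brings folate into the cell and is the target of an approved antibody-drug conjugate, was called in more pairs than the other 7 genes, in 6 of 7. It was lower in all 4 cisplatin-selected lines. OVCAR3 held 31.2, 33.1 and 49.5 TPM, OVCAR3 ResA 1.79, 2.25 and 3.31 TPM, and OVCAR3 ResB 24.6, 13.3 and 7.12 TPM. Neither resistant line overlapped with the parent. The fall was 16.4-fold in OVCAR3 ResA (log2 change -4.04 ± 0.22, adjusted p = 4.78e-70) and 2.86-fold in OVCAR3 ResB (adjusted p = 0.0407), the latter lost without replicate 2 (adjusted p = 0.253) or replicate 3 (adjusted p = 0.262). Its log2 change there was -1.52 with all libraries, -2.22 without replicate 1 and -0.66 without replicate 3. OVCAR4 held 46.2, 70.4 and 79.8 TPM, OVCAR4 ResA 30.5, 38.6 and 27.6 TPM and OVCAR4 ResB 9.66, 19.8 and 19.3 TPM, again without overlap with the parent. FOLR1 fell 2.92-fold in OVCAR4 ResA (adjusted p = 0.00276) and 6.23-fold in OVCAR4 ResB (log2 change -2.64 ± 0.33, adjusted p = 3.43e-13). The OVCAR4 ResA call was lost under 7 of 12 alternatives, among them without replicate 2 (adjusted p = 0.198), without replicate 3 (adjusted p = 0.531) and with edgeR (adjusted p = 0.0772), and the OVCAR4 ResB call under 2 of 12.

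In the PEO lines FOLR1 went the other way. PEO1 had 0, 3 and 1 counts, PEO4 had 451, 574 and 286 counts at 39.5, 35.4 and 22.9 TPM, and PEO6 had 1161, 1610 and 1327 counts at 68.6, 99.7 and 85.2 TPM. Against a floor of 3 counts per library, FOLR1 was at least 157-fold higher in PEO4 (adjusted p = 6.30e-26) and at least 409-fold higher in PEO6 (adjusted p = 2.30e-35). PEA1, at 5.62, 5.12 and 7.64 TPM, and PEA2, at 6.04, 6.62 and 7.08 TPM, overlapped, with a log2 change of 0.13 (95% interval -0.61 to 0.86, adjusted p = 0.810). The interval leaves room for changes of less than 2-fold in either direction.

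MSLN, the other anchored protein and the partner of MUC16 in cell adhesion, was highest in the PEO family. PEO1 held 104, 79.8 and 81.8 TPM, PEO4 175, 134 and 94.9 TPM and PEO6 206, 307 and 302 TPM. It rose 2.95-fold in PEO6 without overlap (log2 change 1.56 ± 0.23, adjusted p = 6.31e-11) and 1.5-fold in PEO4 with 1 library of PEO4 inside the range of PEO1 (adjusted p = 0.00226). OVCAR3 ResA lost most of it, at 2.17, 4.05 and 3.74 TPM against 31.9, 32.1 and 44.6 TPM in OVCAR3, a 12.1-fold fall (adjusted p = 1.93e-92). OVCAR3 ResB, at 36.4, 48.1 and 47.7 TPM, did not pass the test against the parent (log2 change 0.19 ± 0.35, adjusted p = 0.899). In PEA2 it rose 8.69-fold, from 2.26, 1.43 and 2.26 TPM to 12.9, 15.9 and 18.3 TPM (adjusted p = 1.09e-22). The OVCAR4 lines were low, and OVCAR4 ResA was uneven, at 8.10, 0.548 and 0.446 TPM, so that its mean of 3.03 TPM was set by replicate 1.

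SLC34A2, the phosphate transporter, had the largest change among the 7 pairs that rested on counts above the floor of 3 in both lines. PEO1 held 0.316, 0.115 and 0.189 TPM on 10 to 18 counts, PEO4 0.216, 0.183 and 0.0501 TPM on 3 to 14 counts, and PEO6 29.3, 67.8 and 71.2 TPM on 2419 to 5366 counts. It rose 264-fold in PEO6 (log2 change 8.05 ± 0.39, adjusted p = 9.52e-93), while PEO4 and PEO1 overlapped (adjusted p = 0.728). The PEO6 log2 change was 8.72 without replicate 1. PEA2 went the opposite way, from 31.6, 14.4 and 40.2 TPM in PEA1 to 1.91, 1.73 and 2.47 TPM, a 12.0-fold fall (adjusted p = 9.55e-42). This was the only one of the 8 genes called lower in PEA2. OVCAR3 ResA, at 72.8, 65.6 and 45.8 TPM, was 4.95-fold below OVCAR3, at 340, 249 and 232 TPM (adjusted p = 4.31e-109). The OVCAR4 family held the highest level, 412 TPM ± 191 in OVCAR4 ResB, where replicate 1 had 195 TPM and the others 484 and 556 TPM. No change against OVCAR4 was called there (log2 change 0.76 ± 0.32, adjusted p = 0.0846) or in OVCAR4 ResA (adjusted p = 0.853).

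CDH6, a cadherin of kidney and Müllerian epithelium, changed least. It rose 4.31-fold in PEO6, from 29.9, 19.2 and 26.2 TPM to 101, 91.0 and 138 TPM (log2 change 2.11 ± 0.21, adjusted p = 4.93e-22). PEO4, at 23.7, 20.3 and 16.6 TPM, overlapped with PEO1 (adjusted p = 0.225). It fell 1.42-fold in OVCAR3 ResA (adjusted p = 4.37e-06) and 2.13-fold in OVCAR4 ResB (adjusted p = 0.00363), in both cases with overlapping TPM. The OVCAR4 ResB call was lost without replicate 2 (adjusted p = 0.113) or replicate 3 (adjusted p = 0.348). In OVCAR3 ResB, OVCAR4 ResA and PEA2 the log2 changes were -0.13, -0.38 and -0.25, and none was called.

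VTCN1, whose product restrains T cells, was called higher in OVCAR3 ResA, OVCAR4 ResB and PEO6 and lower in PEO4. In OVCAR3 ResA it was the only one called higher, at 110, 37.2 and 47.7 TPM against 48.3, 23.6 and 25.9 TPM. The TPM values overlapped, and each library exceeded the parent's library of the same number in normalised counts. The rise was 1.75-fold with the replicate number in the model (adjusted p = 2.59e-08) and not called without it (adjusted p = 0.10). OVCAR4 ResB held 129, 317 and 321 TPM and OVCAR4 ResA 121, 266 and 239 TPM, both above the 81.2, 67.6 and 97.0 TPM of OVCAR4 in every library. The test on counts called it in OVCAR4 ResB (2.05-fold, adjusted p = 0.0123) and not in OVCAR4 ResA (1.76-fold, adjusted p = 0.0806). The OVCAR4 ResB call was lost without replicate 2 (adjusted p = 0.478) or replicate 3 (adjusted p = 0.420). In PEO6 it rose 6.56-fold, from 1.55, 1.44 and 0.415 TPM to 6.98, 4.83 and 9.57 TPM (adjusted p = 5.27e-08), and in PEO4, at 0.697, 0.506 and 0.156 TPM, it was called lower with overlapping values (adjusted p = 0.0427). The PEO6 log2 change of 2.71 was 3.38 without replicate 2 and 1.90 without replicate 3. The PEO4 call was lost on leaving out any of the 3 replicate numbers (adjusted p = 0.343, 0.461 and 0.0727). In PEA1 and PEA2 it had 1 to 11 counts, and a difference was not detectable at this depth (log2 change 1.13, 95% interval -1.65 to 3.92).

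The OVCAR4 comparisons depended on which libraries were used. RNR1 and RNR2 took 5.18%, 14.8% and 12.0% of counts in OVCAR4 replicates 1, 2 and 3, 9.23%, 2.02% and 2.09% in OVCAR4 ResA and 13.1%, 2.47% and 2.39% in OVCAR4 ResB. Replicate 1 was thus the low one in the parent and the high one in both resistant lines. In the same pairs the median gene was 0.45 and 0.48 higher on the log2 TPM scale in OVCAR4 ResA and OVCAR4 ResB than in OVCAR4, against -0.02 for both over the same genes in the test on counts, so levels in TPM and tests on counts are read relative to those shifts. Without replicate 1, 4 genes were called in OVCAR4 ResA and 8 in OVCAR4 ResB. Without replicate 2, the calls were 0 and 1, and without replicate 3 again 0 and 1. The share of all genes called was not computed for fits that leave out a replicate number. FOLR1 in OVCAR4 ResB was the call that remained in each of these (log2 change -2.81, -2.57 and -2.52). For WFDC2 in OVCAR4 ResA the log2 change was -2.41 without replicate 1 (adjusted p = 1.93e-31) and -1.22 and -1.12 without replicates 2 and 3 (adjusted p = 0.494 and 0.725). WFDC2 in OVCAR4 ResB was -1.14 without replicate 1 (adjusted p = 5.25e-10) and 0.16 and 0.01 without the others. The part of the mitochondrial ribosomal RNA share in these results was not tested. In PEO4, leaving out replicate 1 left 1 call of 6, FOLR1, with MSLN at adjusted p = 0.228, MUC16 at 0.165 and WFDC2 at 0.0799.

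**Figure D4:**
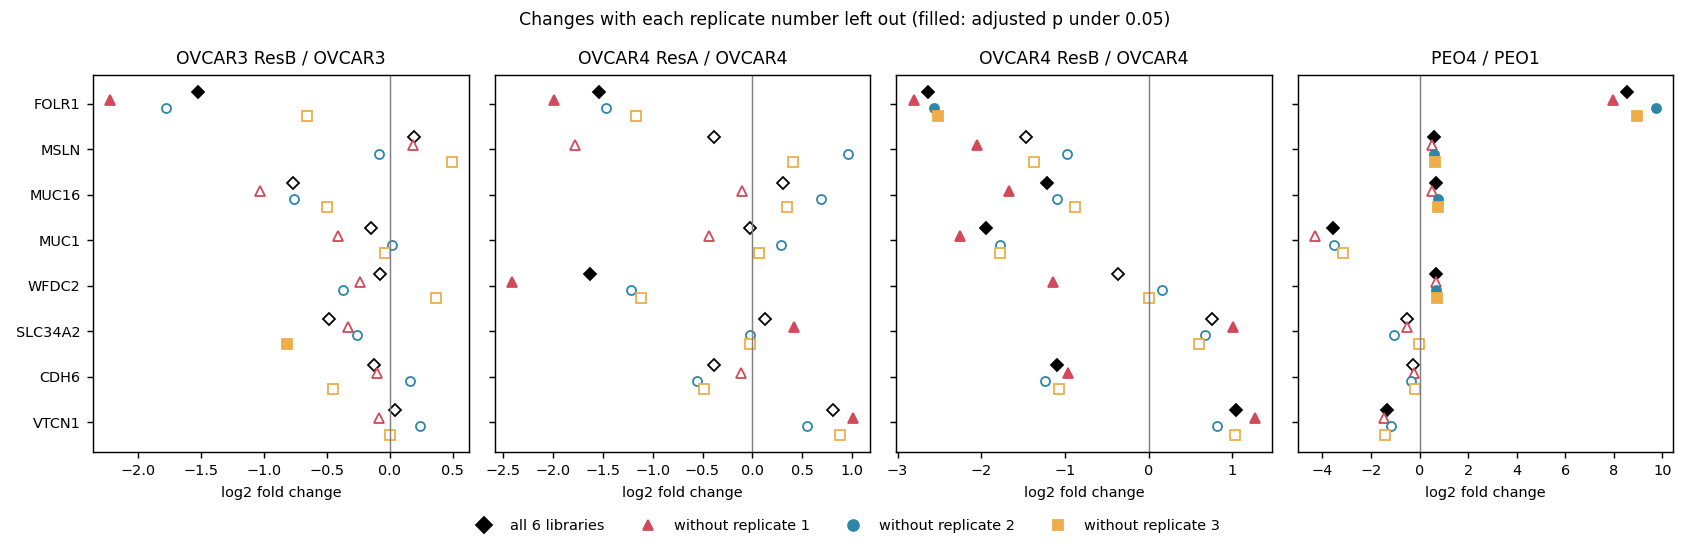
Log2 fold change of the 8 genes in the pairs whose calls moved most, with all 6 libraries (black diamonds) and with each replicate number left out of both lines, filled at adjusted p under 0.05. In OVCAR4 ResB all 8 triangles (without replicate 1) are filled, while only FOLR1 is filled without replicate 2 or 3. The share of all genes called in the fits with a number left out was not computed.

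Resistant lines of one family were also compared with each other. In the OVCAR3 family 5 genes were higher in ResB than in ResA and none was lower, where 13.5% of all genes were called, 7.47% higher and 6.04% lower. MSLN differed most (13.9-fold, adjusted p = 6.84e-23), followed by WFDC2 (11.6-fold, adjusted p = 3.79e-15), FOLR1 (5.68-fold, adjusted p = 3.72e-04), MUC1 (3.77-fold, adjusted p = 8.54e-05) and SLC34A2 (3.54-fold, adjusted p = 2.43e-05). The ResA and ResB libraries did not overlap for any of these 5. Without replicate 1, FOLR1 (adjusted p = 0.201) and MUC1 (adjusted p = 0.0804) were no longer called, and neither was FOLR1 without replicate 2 (adjusted p = 0.132). Without replicate 3 the log2 changes of FOLR1 and WFDC2 were 3.38 and 4.13, against 2.50 and 3.54 with all libraries. In the PEO family 6 genes were higher in PEO6 than in PEO4, where 18.2% of all genes were called, 9.86% higher and 8.33% lower. SLC34A2 was 353-fold higher (adjusted p = 1.39e-67), VTCN1 16.0-fold (adjusted p = 3.12e-13), CDH6 5.19-fold (adjusted p = 9.90e-15), MUC16 3.41-fold (adjusted p = 4.98e-07), FOLR1 2.52-fold (adjusted p = 2.46e-04) and MSLN 1.97-fold (adjusted p = 0.0113). None of these 6 overlapped between the lines, and without replicate 2 FOLR1 (adjusted p = 0.140) and MSLN (adjusted p = 0.441) were not called. The log2 change of SLC34A2 was 8.46 with all libraries and 9.10 without replicate 1, and that of VTCN1 was 4.0 with all libraries and 3.33 without replicate 3.

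In the OVCAR4 family 7 genes differed between ResB and ResA, 3 higher and 4 lower in ResB, where 32.8% of all genes were called, 16.2% higher and 16.5% lower. MUC1 was 3.74-fold lower (adjusted p = 3.04e-13), MUC16 2.86-fold lower (adjusted p = 1.81e-14), FOLR1 2.11-fold lower (adjusted p = 1.29e-04) and CDH6 1.62-fold lower (adjusted p = 2.53e-07). WFDC2 was 2.40-fold higher (adjusted p = 2.79e-19), SLC34A2 1.55-fold (adjusted p = 6.63e-12) and VTCN1 1.17-fold (adjusted p = 0.0397). The share of overlapping calls over all genes was not computed for comparisons between resistant lines. In TPM the OVCAR4 ResB and ResA libraries overlapped for CDH6, SLC34A2 and VTCN1, and not for MUC1, MUC16, FOLR1 and WFDC2. Libraries of the same number deviated together in these 2 lines (r = 0.630, 0.446 and 0.489 across genes), and without the replicate block 4 of the 7 calls were made, WFDC2, SLC34A2 and VTCN1 being lost (adjusted p = 0.0860, 0.449 and 0.874). VTCN1 was also lost without replicate 2 (adjusted p = 0.361) or replicate 3 (adjusted p = 0.384).

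With the line as the unit, counts summed over its libraries and the family in the model, none of the 8 genes was called between the 7 resistant and the 4 sensitive lines, where 0.286% of 23805 genes were, 0.130% higher and 0.155% lower. The smallest adjusted p of the 8 was 0.984, in VTCN1. None had an unadjusted p under 0.05, and edgeR called none either (smallest adjusted p 0.979, none with an unadjusted p under 0.05). The log2 changes ran from -0.80 ± 1.05 in FOLR1 to 1.01 ± 0.61 in VTCN1. The standard errors ran from 0.51 in CDH6 to 1.18 in SLC34A2 and, except in VTCN1, exceeded the change, so this design could not tell modest common shifts from none.

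The mean change of the 4 cisplatin-selected pairs was also set against that of the 3 pairs from patients, in a fit of all 33 libraries whose spread is between libraries and not between lines. Of the 8 genes, 6 differed, all lower in the cisplatin-selected pairs, where 38.7% of all genes were called, 19.7% higher and 19.0% lower. The difference was -8.58 ± 0.61 for FOLR1 (adjusted p = 1.21e-42), a value that depends on the 0 to 3 counts of PEO1. It was -3.87 ± 0.31 for MUC16 (adjusted p = 5.79e-34), -3.68 ± 0.41 for WFDC2 (adjusted p = 2.04e-17) and -2.79 ± 0.58 for MSLN (adjusted p = 1.14e-05). SLC34A2 (-1.80 ± 0.36, adjusted p = 4.42e-06) and CDH6 (-1.05 ± 0.20, adjusted p = 1.45e-06) also passed, but the changes in their patient pairs did not share a sign. The cisplatin-selected changes were above 0, uncalled, for MUC16 and SLC34A2 in OVCAR4 ResA (0.31 and 0.13). The same held for MSLN in OVCAR3 ResB (0.19) and SLC34A2 in OVCAR4 ResB (0.76). The other cisplatin-selected changes of these genes were below 0. MUC1 (-0.54 ± 0.46, adjusted p = 0.374) and VTCN1 (0.00 ± 0.50, adjusted p = 0.999) did not pass.

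Relatives of the markers were read from lists of each gene's family or use. Counts are of genes with an adjusted p, and the share of all genes called in a pair stands beside them. Of 15 genes for folate receptors, carriers and enzymes, 3 were higher and 4 lower of 12 in OVCAR3 ResA (44.9% of all genes called), and none was higher and 3 were lower of 12 in OVCAR4 ResA (11.9%). PEO4 had 3 higher and none lower of 13 (33.3%), and PEO6 had 1 higher and 3 lower of 12 (41.4%). MTHFD2, a mitochondrial enzyme of one-carbon metabolism, was lower in OVCAR3 ResA, OVCAR4 ResA and PEO6 (log2 change -0.58, -1.0 and -0.74) and higher in PEA2 (0.81). Over the 7 pairs the list made 11 higher and 13 lower calls among 86 combinations with an adjusted p (7.67% to 47.0% of all genes called per pair).

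The 15 measured relatives of WFDC2 with a whey acidic protein domain held few expressed genes. They made 9 higher and 3 lower calls among 26 combinations with an adjusted p (7.67% to 47.0% of all genes called per pair). SLPI, a secreted inhibitor of neutrophil elastase, was called in the same direction as WFDC2 in 4 pairs: lower in OVCAR3 ResA (log2 change -3.79) and higher in PEA2, PEO4 and PEO6 (7.65, 1.29 and 2.19). PI3, which encodes the elastase inhibitor elafin, was called in 6 pairs and went in opposite directions in the lines of each OVCAR family. It was lower in OVCAR3 ResA (-5.99) and higher in OVCAR3 ResB (3.88), lower in OVCAR4 ResA (-2.40) and higher in OVCAR4 ResB (2.35), and higher in PEA2 (10.39) and PEO4 (2.59).

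Among 12 other mucins, PEA2 had 4 higher and none lower of 5, against 47.0% of all genes. MUC20 rose there by 8.03 on the log2 scale, and MUC4 was called higher too. MUC4 was also lower in OVCAR3 ResA and PEO6 (-2.83 and -1.37) and higher in OVCAR4 ResA (3.81), and MUC20 was lower in PEO4 and PEO6 (-1.84 and -1.02). The list as a whole had 2 higher and 2 lower of 7 in PEO6 (41.4% of all genes called). The higher ones were MUC13 and MUC6, which were named after their values were seen. Their highest line means were only 0.245 and 0.708 TPM. Phosphate transporters other than SLC34A2 numbered 7. They were called 4 times higher and 5 times lower among 27 combinations with an adjusted p (7.67% to 47.0% of all genes called per pair). The housekeeping transporter SLC20A2 was lower in OVCAR3 ResA (-0.38) and higher in PEA2, PEO4 and PEO6 (0.79, 2.02 and 1.07), and SLC20A1 was higher in OVCAR3 ResA (0.64) and lower in PEA2 and PEO6 (-0.82 and -1.28).

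Among 20 classical cadherins and catenins, PEO4 had 1 higher and 5 lower of 10 (33.3% of all genes called) and PEO6 had 3 higher and 6 lower of 11 (41.4%), CDH6 not being on the list. CDH3, P-cadherin, fell in both (-3.60 and -3.57) and in OVCAR4 ResB (-1.16) and rose in PEA2 (7.37). CTNNB1, beta-catenin, fell in PEO4 and PEO6 (-0.69 and -0.83) and rose in OVCAR3 ResA and PEA2 (0.60 and 0.87). Among 9 other B7 family ligands, OVCAR3 ResA had 3 higher and none lower of 7 (44.9% of all genes called) and PEA2 3 higher and none lower of 6 (47.0%). PEO4 and PEO6 each had 1 higher and 3 lower of 6 (33.3% and 41.4%). ICOSLG, the ligand of the costimulatory receptor ICOS, was higher in OVCAR3 ResA, PEO4 and PEO6 (1.16, 6.70 and 6.76). Its line means ran only from 0.259 to 4.91 TPM over the 11 lines. The PEO4 and PEO6 calls were near the threshold (adjusted p = 0.0412 and 0.0359), so their sizes are not read as folds. C10orf54, an older symbol of the checkpoint gene VSIR, was higher in OVCAR3 ResA and PEA2 (0.58 and 1.52) and lower in PEO4 (-0.57).

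The wider classes to which the 8 genes belong were also counted. Of 20 other serum markers, OVCAR3 ResA had 2 higher and 13 lower of 19 (44.9% of all genes called) with a median log2 change of -0.92, and PEA2 had 11 higher and 2 lower of 16 (47.0%) with a median of 4.2. PEO4 had 7 higher and 4 lower of 18 (33.3%) and PEO6 8 higher and 3 lower of 18 (41.4%). KLK6, a secreted serine protease, was called in all 7 pairs: lower in OVCAR3 ResA, OVCAR3 ResB, PEO4 and PEO6 (-2.12, -1.26, -1.14 and -0.73) and higher in OVCAR4 ResA, OVCAR4 ResB and PEA2 (3.67, 2.03 and 8.51). The lowest line mean of KLK6 was 0.0 TPM, so the size of 8.51 in PEA2 is not read as a fold. IL8, the neutrophil chemokine, was higher in OVCAR4 ResA, OVCAR4 ResB and PEA2 (3.56, 1.54 and 12.27) and lower in OVCAR3 ResA, PEO4 and PEO6 (-2.53, -3.11 and -2.45).

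Of 20 other surface targets of antibodies, OVCAR3 ResA had 9 higher and 5 lower of 17 (44.9% of all genes called), OVCAR4 ResA 8 higher and 1 lower of 15 (11.9%), and PEA2 10 higher and 5 lower of 17 (47.0%). PEO6, in which 7 of the 8 markers were higher, had 2 higher and 8 lower of 18 (41.4%). L1CAM, a neural adhesion protein, was higher in OVCAR3 ResA, OVCAR3 ResB, OVCAR4 ResA and PEA2 (1.60, 2.43, 1.0 and 3.29) and lower in PEO4 and PEO6 (-4.98 and -4.91).

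The changes in PEA2 went with a wider difference between the lines. Of the 12 Müllerian and epithelial identity genes, 8 were higher and 1 lower of 11 in PEA2 (47.0% of all genes called), with a median log2 change of 5.48, and KRT7, a keratin of simple epithelium, rose by 8.61 from 2.95 TPM in PEA1. COL1A1, a fibroblast collagen, fell by 6.50 from 88.4 TPM in PEA1. SOX17, a transcription factor of the Müllerian lineage, rose in PEA2 (7.25) and in PEO6 and fell in OVCAR3 ResA and OVCAR3 ResB (-0.93 and -1.64). The list was mixed in PEO6 and OVCAR3 ResA, each with 4 higher and 5 lower of 12 (41.4% and 44.9% of all genes called). OVCAR3 ResB had none higher and 2 lower of 12 (7.67%). KRT7 was higher in OVCAR3 ResA (0.24) and lower in PEO4 and PEO6 (-2.37 and -1.32). The part of the wider difference between PEA1 and PEA2 in the marker results of PEA2 was not tested.

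Likeness across the 11 line means was described with Pearson's r of log2(TPM + 1). Points within a family share an origin, so no test is given. The 2 genes most like WFDC2, among 11226 that reached 10 TPM in some line, were ERBB3 (r = 0.898) and SLPI (0.888), and those most like FOLR1 were ZBTB10 (0.890) and ERBB4 (0.883). MSLN was closest to SATB1 (0.981) and VWA1 (0.973), MUC16 to KLK8 (0.932) and TM7SF2 (0.915), and MUC1 to CDC42EP5 (0.951) and XXYLT1 (0.948). SLC34A2 was closest to DCUN1D2 (0.942) and SH3BGR (0.933), CDH6 to MDK (0.961) and SNRPB2 (0.950), and VTCN1 to ALDOC (0.977) and CBWD1 (0.972). Among the 8 themselves, r was 0.85 for SLC34A2 with VTCN1 and with CDH6, 0.79 for MUC1 with CDH6 and 0.76 for MUC16 with WFDC2. MSLN and VTCN1 gave the lowest value, -0.53.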

How the data were processed

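Poly(A)-selected RNA of 11 high-grade serous ovarian carcinoma lines was sequenced in 3 libraries per line. The authors quantified reads with salmon in a standard RNA-seq workflow against GRCh38 and deposited estimated counts (expected counts, 88.4% of them whole) and TPM for 29744 genes, of which 4956 were at 0 in all libraries. The strand setting of counting is not given in the sources used here, so reads of overlapping antisense genes may be included. Base calls had been converted to reads with DRAGEN, per the study's methods and the submitters' processing notes. All per-sample columns matched a sample by name.

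Estimated counts were rounded and tested with DESeq2 1.42.0 in R 4.3.3, each pair in a fit of its 6 libraries with line and replicate number as terms, as in the study's own model, with no filter before fitting. P-values were two-sided Wald tests, Benjamini-Hochberg adjusted over all genes with a defined value, and called under 0.05. They measure the spread between libraries, which may be technical. Lines were also compared on summed counts with family as a term. Alternatives used edgeR 4.0.16, and limma 3.58.1 on log2(TPM + 1) or log2(TPM + 0.1), and left out each replicate number. For the 8 genes, where a line had at most 3 counts in every library, folds are bounds against 3 counts per library. Such bounds were not computed for listed or neighbouring genes. Counting limits cover counting error only. Libraries of the same number deviated together in every pair of numbers (r over 0.1) for OVCAR3 ResA with OVCAR3 (r = 0.636, 0.218 and 0.426) and OVCAR4 ResB with OVCAR4 ResA, and not in the other 8 comparisons. On simulated data with PEA1 means and 29744 genes, DESeq2 called 98% of 100 genes changed 2-fold and all 100 changed 4-fold. The simulation gave all genes the same fixed spread and changed only genes with ample counts. These shares are therefore not the power of the real comparisons.

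The members and lists were chosen with earlier results of these data known. All 8 members are named. Each list names at most 2 genes, those called in the most pairs, ties by higher mean TPM. Some genes that this rule names are not reported here. Each member has its 2 most correlated genes, among genes reaching 10 TPM in a line, and its 2 nearest measured genes on each side were read from the reference table.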

Additional observations from a re-analysis of the deposited data

Results flagged for a closer look

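From the mean change in the 4 cisplatin-selected pairs, that in the 3 pairs from patients was subtracted. By the test of this difference itself, 6 of the 8 genes differed from 0. Of all genes 38.7% were called there, 19.7% higher and 19.0% lower. On the log2 scale the difference was -8.58 for FOLR1, -2.79 for MSLN, -3.87 for MUC16, -3.68 for WFDC2, -1.80 for SLC34A2 and -1.05 for CDH6. These differences come from 1 fit of all 33 libraries, whose spread is between libraries and not between lines. The means that follow are of the separate fits of each pair, so they do not subtract to the same values. FOLR1 averaged -2.44 in the cisplatin-selected and 6.18 in the patient pairs, MSLN -1.32 and 1.75, MUC16 -0.74 and 3.13, and WFDC2 -1.42 and 2.33. SLC34A2 averaged -0.48 and 1.32, and CDH6 -0.52 and 0.53. Within the patient pairs SLC34A2 went from -3.59 in PEA2 to 8.05 in PEO6, so its mean stands for neither. FOLR1 was 0.13 in PEA2, not called, and 8.52 in PEO4 and 9.88 in PEO6. Both PEO values depend on the 0 to 3 counts of PEO1, so its patient mean is not read as a size. The cisplatin-selected pairs come from 2 families and the patient pairs from 2 others, so the way resistance arose and the family cannot be told apart. Groups of 3 libraries are too small for a search for outlying libraries.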

How the results depend on the processing

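Of the 34 calls, 19 were kept under all alternatives, 15 were lost under at least 1 and none was reversed. Counts of calls moved by over 1.5 times in the comparisons that follow, and the cause was not tested. The share of all genes called under each alternative was not computed. In OVCAR3 ResB the 1 call became 0 under edgeR, without the replicate block and under all 4 limma settings, with 0 to 1 on leaving out a replicate number. In OVCAR4 ResA the 2 calls became 0 under edgeR and all 4 limma settings, with 0 to 4 on leaving out a number. In OVCAR4 ResB the 5 calls became 2 under edgeR, 0 under limma on log2(TPM + 1) with or without the filter, and 1 with the pseudocount 0.1 or median centring, with 1 to 8 on leaving out a number. In PEO4 the 6 calls became 3 with all 33 libraries in one fit and 2 under limma with either pseudocount, with 1 to 4 on leaving out a number. For OVCAR3 ResB against ResA the 5 calls became 3 under limma with either pseudocount, 0 without the filter and 2 with median centring, with 3 to 7 on leaving out a number. For PEO6 against PEO4 the 6 calls became 2 under limma without the filter.

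Without the replicate block, OVCAR4 ResB against ResA had 4 calls in place of 7, VTCN1 in OVCAR4 ResA (0.86) and SLC34A2 in OVCAR4 ResB (0.82) were called, FOLR1 in OVCAR3 ResB was -1.37 (adjusted p = 0.0585), WFDC2 in OVCAR3 ResB was 0.00 and MSLN in OVCAR4 ResA 1.09. Other changes of sign were in uncalled values. With all libraries in one fit MSLN in OVCAR4 ResA was 0.98. Under limma it was 0.42 with or without the filter and 0.36 with the pseudocount 0.1. MUC1 there was 0.39 with or without the filter and 0.42 with that pseudocount, CDH6 there was 0.14 and WFDC2 in OVCAR4 ResB 0.28 in all 3 settings. With median centring VTCN1 in OVCAR3 ResB was -0.02 and MUC16 in OVCAR4 ResA -0.05. At the level of lines FOLR1 was 0.10 without the OVCAR3 family, WFDC2 -0.38 without the PEA family, SLC34A2 0.77 and 0.78 without OVCAR3 and PEA, and CDH6 0.06, 0.31 and 0.03 without OVCAR3, OVCAR4 and PEA.

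Leaving out a replicate number turned these uncalled values. In OVCAR3 ResB they were CDH6 (-0.45 to 0.16), MSLN (-0.09 to 0.49), MUC1 (-0.41 to 0.02), VTCN1 (-0.09 to 0.24) and WFDC2 (-0.37 to 0.37), and against ResA CDH6 (-0.06 to 0.68). In OVCAR4 ResA they were MSLN (-1.78 to 0.96), MUC1 (-0.43 to 0.29), MUC16 (-0.10 to 0.69) and SLC34A2 (-0.02 to 0.42), in OVCAR4 ResB WFDC2 (-1.14 to 0.16) and in PEA2 CDH6 (-0.44 to 0.12). At the level of lines they were CDH6 (-0.05 to 0.05), MSLN (-0.05 to 0.87), SLC34A2 (-0.35 to 0.05) and WFDC2 (-0.09 to 0.66), and in the difference between kinds of pair VTCN1 (-0.31 to 0.24). Without a number a fit has 4 libraries. Depth limited MUC1 in the PEO lines, VTCN1 in the PEA lines and FOLR1 in PEO1.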

Other observations

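The nearest measured genes on each side of the 8 members, 32 in all, were read in the same pairs. A neighbour and its member were both called in the same direction in 22 combinations and in opposite directions in 17. The same count was not made for genes elsewhere, and 7.67% to 47.0% of all genes were called per pair. DBNDD2, 59143 bases from WFDC2, was called with it in 5 pairs, always in the same direction: lower in OVCAR3 ResA and OVCAR4 ResA (log2 change -1.40 and -1.70) and higher in PEA2, PEO4 and PEO6 (0.66, 2.10 and 2.25). In OVCAR4 ResB, where WFDC2 was not called, DBNDD2 was lower (-2.17). INPPL1, which encodes a lipid phosphatase and lies 27240 bases from FOLR1, was lower in OVCAR3 ResA (-0.93) and higher in PEO4 and PEO6 (0.90 and 1.37), as FOLR1 was. NARFL, beside MSLN, was lower in PEA2 and PEO4 (-2.11 and -0.69), where MSLN was higher.

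Marker genes of other cell types also differed between lines. Of 6 mesothelial genes, OVCAR3 ResA had none higher and 2 lower of 3 with an adjusted p (44.9% of all genes called), and OVCAR3 ResB 2 higher, CALB2 and HP, and 1 lower of 4 (7.67%). PEO4 had 1 higher and 2 lower of 4 (33.3%) and PEO6 2 higher and 2 lower of 4 (41.4%). CALB2 and HP were named after their values were seen. UPK3B, a mesothelial surface protein, was lower in OVCAR3 ResA and OVCAR3 ResB (-2.03 and -1.47) and higher in PEO4 and PEO6 (1.88 and 2.44). LRRN4, another mesothelial gene, was lower in OVCAR3 ResA, PEO4 and PEO6 (-4.81, -1.98 and -2.09) and higher in OVCAR4 ResB (3.82). CD68, a lysosomal protein of macrophages, was higher in PEA2 (1.63) and lower in PEO6 (-1.53). CD14 was higher in PEA2 (3.24) and lower in PEO4 (-1.72). Of the endothelial genes, PECAM1 was higher in OVCAR3 ResB and PEA2 (7.22 and 3.07) and VWF in OVCAR4 ResA and OVCAR4 ResB (2.70 and 2.86). PECAM1 reached a mean of 1 TPM only in OVCAR3 ResB (6.76 TPM), and VWF stayed at or under 0.654 TPM on average. COL1A2 stayed at or under 0.764 TPM on average in every line.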
